A study of Mus musculus with 4 samples.

Results

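The genes described here are the ID factors and a set of BMP signalling genes: Id1, Id2, Id3, Id4, Bmp7, Bmp4, Bmpr1a, Bmpr2, Smad6 and Smad7. They were chosen by name, with earlier results of these data known. Counts of calls among them are therefore a description and not a test. Ensembl identifiers were matched to mouse symbols with GENCODE M21 (build GRCm38). Of the 10 genes, 9 were measured among 25261 gene identifiers, and all 9 were among the 21829 genes tested. Bmp4 was not analysed here.

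Total RNA of adult neural stem cells, from which the adult brain makes new neurons and glia, was sequenced; the cells came from C57BL/6 mice aged 8 weeks. Cells were infected with a lentivirus carrying a short hairpin RNA against mouse Ogt (shOGT, 2 libraries) or one carrying a scrambled hairpin (ctrl, 2 libraries). Both groups therefore share the infection, the strain and the age. The series title connects Ogt, the enzyme that puts O-GlcNAc, a single sugar, on proteins inside the cell, with adult neurogenesis and Notch signalling. Whether a group's libraries are separate cultures is not stated in the labels, so the spread between these libraries may be technical. SEs and p-values combine that spread with variance borrowed from other genes and cover no variation beyond these libraries.

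BMP ligands such as BMP7 and BMP4 bind a pair of type I and type II receptor kinases, among them BMPR1A and BMPR2. The type I receptor phosphorylates SMAD1, SMAD5 and SMAD9, which enter the nucleus with SMAD4 and switch on a small set of immediate targets, the Id genes and the inhibitory SMADs first among them. ID proteins carry a helix-loop-helix domain without a DNA-binding region and hold E proteins in pairs that cannot bind DNA, which restrains proneural factors. In the adult neurogenic niches BMP signalling is known to favour stem cell quiescence and glial fate over neuronal differentiation.

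The promoter windows of Id2, Id3 and Id4 are printed, the ID genes with an entry in the RefSeq promoter table, since the values of Id2 and Id3 were lower in both shOGT libraries than in both ctrl libraries and those of Id4 were not. The table, for GRCm38.p6, matched 7 of the 10 genes, all but Id1, Bmp7 and Smad7, and each window is the 250 bases before the start that RefSeq annotates, read 5′ to 3′ on the gene's own strand. Capitals mark every match, on either strand, to GGCGCC (the core of known BMP response elements), CAGACA (SMAD box letters), TGACG (core of a cAMP response element), CCAAT (bound by NF-Y), CAGCTG (an E-box) or TATAAA (the TATA motif of some promoters). Overlapping matches were allowed. The Id2 window lies on the minus strand at chr12:25096093-25096342, that of Id3 on the plus strand at chr4:136143572-136143821 and that of Id4 on the plus strand at chr13:48260866-48261115. RefSeq and GENCODE place these starts differently: the windows of Id2 and Id3 lie inside the GENCODE gene spans given with their values, and that of Id4 lies before its span.
Id2: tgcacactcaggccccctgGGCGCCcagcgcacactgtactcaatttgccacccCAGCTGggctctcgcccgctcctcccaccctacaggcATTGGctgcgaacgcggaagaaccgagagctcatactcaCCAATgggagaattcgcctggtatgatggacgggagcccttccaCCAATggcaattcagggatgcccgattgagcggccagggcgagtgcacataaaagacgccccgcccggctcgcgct
Id3: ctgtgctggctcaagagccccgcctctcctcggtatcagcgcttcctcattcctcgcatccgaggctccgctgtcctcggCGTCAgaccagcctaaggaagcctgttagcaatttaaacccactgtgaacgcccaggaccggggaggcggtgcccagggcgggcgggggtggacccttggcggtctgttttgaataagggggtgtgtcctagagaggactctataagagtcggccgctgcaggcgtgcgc
Id4: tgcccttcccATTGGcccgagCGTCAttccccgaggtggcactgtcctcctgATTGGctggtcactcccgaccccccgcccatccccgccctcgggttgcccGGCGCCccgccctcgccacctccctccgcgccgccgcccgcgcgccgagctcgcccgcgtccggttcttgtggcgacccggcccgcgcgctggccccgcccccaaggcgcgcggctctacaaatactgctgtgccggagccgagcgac

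GGCGCC was present once in the windows of Id2, Id4, Bmpr1a and Bmpr2, starting 231, 148, 198 and 105 bases before the start. It occurred in 9.59% of all 32851 windows of the table. The G and C content of these windows was 62.8%, 75.6%, 78.8% and 64%, in that order, and the share over all windows was not matched for it. The windows of Bmpr1a and Bmpr2 also lie inside the GENCODE spans of their genes. CCAAT occurred 3 times in Id2, 2 times in Id4 and once in Bmpr1a, against 33.8% of all windows with at least 1 match. TGACG occurred once each in Id3 and Id4 (17.8% of all windows) and CAGCTG once in Id2 (13% of all windows). CAGACA and TATAAA had 0 matches in the 7 windows, including those of Bmp4 and Smad6, and were found in 17.1% and 12.4% of all windows. The windows of Id2 and Id3 share none of these letter strings, and those of Id2 and Id4 share GGCGCC and CCAAT. A match is a description of letters only.

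The deposited values are a signal per gene on a scale set by the authors, and their sum was 16689500 and 16736000 in shOGT and 16863200 and 16953700 in ctrl. In each library the values were whole multiples of a fixed step, between 0.943 and 1.06, as reads divided by 1 factor per library would be. Ogt measured 3379 and 3516 in shOGT, against 4112 and 4138 in ctrl. Its log2 fold change was -0.26 ± 0.04 (SE, n = 2 each, limma adjusted p = 0.00876). The mean of Ogt RNA was thus 16.4% lower in shOGT than in ctrl, and OGT protein was not measured here. The 8 stem cell markers (Sox2, Nes and Vim among them) were above 0 in every library. They summed to 119768 and 124830 in shOGT and 128856 and 132328 in ctrl. Most of that gap was Fabp7, at 20416.5 and 22434.4 in shOGT and 29543.2 and 30451.4 in ctrl. Sox2, Nes and Vim had log2 fold changes of -0.02, 0.10 and 0.09 and were not called. Of the 8, 1 was called lower (Fabp7, log2 fold change -0.49). So were 2 of 6 astrocyte markers (Gja1, -0.20, and Aldh1l1, -0.19) and 1 of 5 tested oligodendrocyte lineage markers (Pdgfra, -1.13). Astrocyte markers not called were Aqp4 at -0.33, Aldoc at 0.02, S100b at 0.08 and Gfap at 0.33. The astrocyte sums overlapped between groups, at 23969 and 25938 in shOGT and 26191 and 25601 in ctrl. Over all genes tested the share called lower was 2.9%. The 6 neuroblast and neuron markers summed to 3215 and 2889 in shOGT and 2720 and 2720 in ctrl, with 0 called by limma, and their part in the results was not tested. Most of that sum was Sox11, at 2908 and 2500 in shOGT and 2428 and 2382 in ctrl, while Dcx measured 19.1 and 29.2 in shOGT and 40.9 and 66.5 in ctrl. Marker sums were 22.3 and 14.1 in shOGT and 19.9 and 21.8 in ctrl for fibroblasts (3 of 5 markers measured) and 9.57 and 13.2 in shOGT and 10.97 and 8.93 in ctrl for microglia (6 of 8). Sums were 758 and 713 in shOGT and 593 and 641 in ctrl for 3 of 4 ependymal markers, and 73.4 and 80.1 in shOGT and 73.8 and 120 in ctrl for 7 pericyte markers, with 0 called by limma. In bulk RNA, fewer cells of a type and less RNA per cell cannot be told apart.

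**Figure D1:**
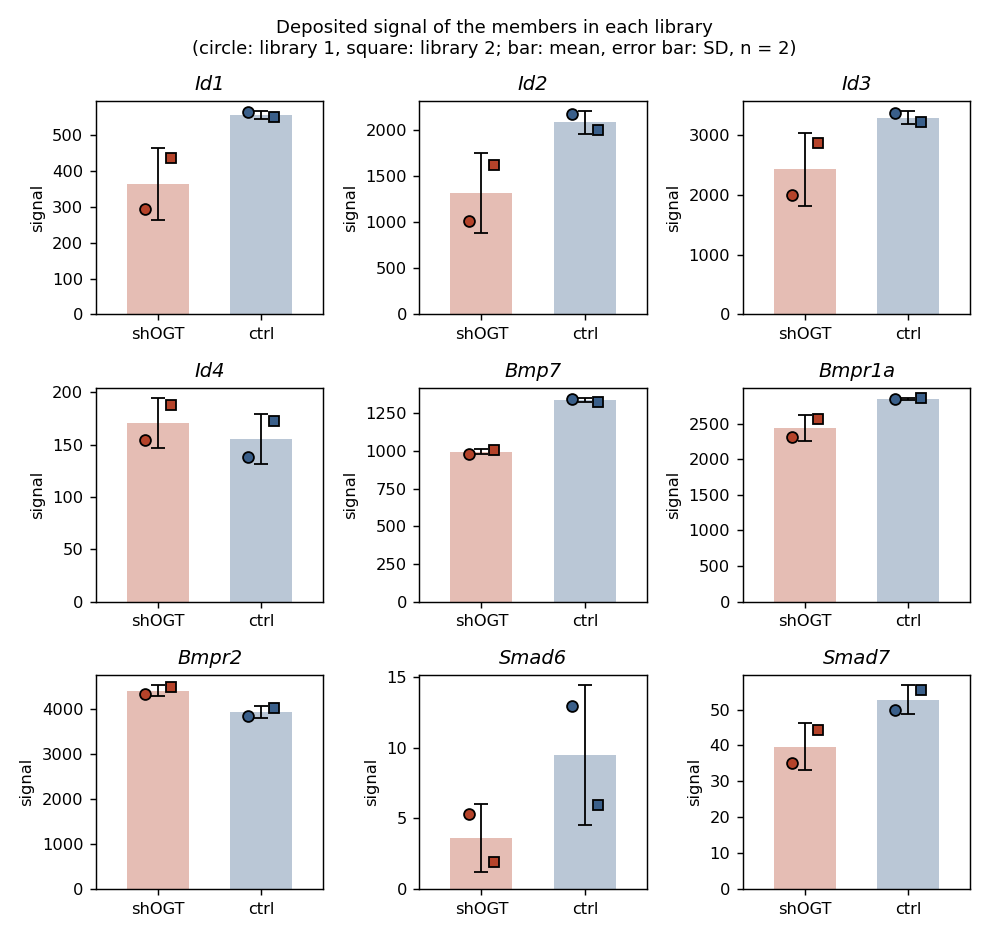
Deposited signal (y axis, from 0) of the 9 measured genes in the shOGT and ctrl libraries. Bars are group means, error bars are SDs (n = 2), and circles and squares are libraries 1 and 2; in Id1, Id2 and Id3 both shOGT libraries lie under both ctrl libraries, with shOGT 1 the lower of the pair, and in Bmp7 the libraries of each group lie close together.

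Across the 9 genes, 4 fell in shOGT (Id1, Id2, Bmp7 and Bmpr1a) and 0 rose, at an adjusted p under 0.05 in limma, a linear model that borrows variance across all genes; fold changes are on the log2(signal + 1) scale. Over all genes tested 2.9% were called lower, 1.96% were called higher and 4.86% were called in either direction. The median log2 fold change of the 9 genes was -0.42, beside 0.001 over all genes tested. Since the genes were chosen with earlier results known, neither the shares nor the medians test the set. In 7 of the 9 both shOGT values lay under both ctrl values, as in 24.3% of all genes tested, and in 1, Bmpr2, they lay above, as in 25% of all genes. With any 1 library left out limma called 0 genes in all, with 2484 to 3389 genes at an unadjusted p under 0.05 at the filter used here. With the minimum signal raised to 10 as well, a pair of settings chosen after seeing the data, 275 to 2457 genes were called with 1 library left out, and Bmp7 was called in all 4 of those fits (limma adjusted p up to 0.0327). Calls on these 9 genes also ended with no filter, with quantile normalization and without the variance trend.

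Id1 and Id2 fell in shOGT, Id3 had lower values in both shOGT libraries but missed the threshold, and Id4 overlapped between groups. Id1, on the plus strand of chromosome 2 at 152736251 to 152737410, measured 293 and 436 in shOGT, against 564 and 550 in ctrl. The groups did not overlap, and shOGT 1 was the lowest library. Its mean was 364 ± 100.5 in shOGT and 557 ± 10.5 in ctrl (SD, n = 2 each). Its log2 fold change was -0.64 with an SE of 0.15 (limma adjusted p = 0.0442).

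Id2, on the minus strand of chromosome 12 at 25093799 to 25097140, measured 1011 and 1623 in shOGT, against 2172 and 1997 in ctrl. Again both shOGT values were under both ctrl values. Its log2 fold change was -0.70 ± 0.17 (SE, n = 2 each; limma adjusted p = 0.046), the most negative of the ID genes.

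Id3, on the plus strand of chromosome 4 at 136143497 to 136145755, measured 1992 and 2861 in shOGT and 3372 and 3215 in ctrl. The groups did not overlap, but the gene missed the threshold, and its log2 fold change was -0.46 ± 0.13 (SE, n = 2 each; limma adjusted p = 0.0745). It passed when genes were kept only at a signal of at least 10 (adjusted p = 0.00583), where 1955 genes were called in all.

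Id4, on the plus strand of chromosome 13 at 48261228 to 48266026, measured 154 and 188 in shOGT and 139 and 173 in ctrl. Its groups overlapped, and its log2 fold change was 0.14 ± 0.15 (SE, n = 2 each; limma adjusted p = 0.686) with a 95% interval of -0.20 to 0.48. A fall of the size seen in Id1 or Id2 lies outside that interval. The interval rests on 2 libraries per group and on variance borrowed from other genes, so it does not test Id4 against Id1 or Id2. The sign of the Id4 value was not stable, at -0.005 without shOGT 2 and -0.02 without ctrl 1. Exons of Id4 overlap 171 bases of Gm49291 and 82 bases of A330033J07Rik on the other strand, and both of those genes measured at most 2.13 in any library; whether the counting used strand is not given in the sources at hand, so reads there cannot be assigned.

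The ratio of Id1 to Id4 within a library, which does not depend on the scaling of libraries, was 1.90 and 2.32 in shOGT and 4.07 and 3.18 in ctrl. The Id3 to Id4 ratio was 12.9 and 15.3 in shOGT and 24.3 and 18.6 in ctrl. For both ratios the groups did not overlap, but with 2 libraries on each side the smallest two-sided p of an exact permutation test is 0.333, so the difference between the ID genes was not tested. The ratio of Id1 to Id2 was 0.290 and 0.268 in shOGT and 0.260 and 0.275 in ctrl, and its groups overlapped. The Id1 to Id3 ratio was 0.147 and 0.152 in shOGT and 0.167 and 0.171 in ctrl. For Id2 to Id3 it was 0.507 and 0.567 in shOGT and 0.644 and 0.621 in ctrl. These ratios to Id3 did not overlap between groups either, and they were not tested.

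The size of the ID change depended on the library. In shOGT 1, Id1, Id2 and Id3 stood at 52.7%, 48.5% and 60.5% of their ctrl means, and in shOGT 2 at 78.2%, 77.9% and 86.9%. Without shOGT 1 the log2 fold changes were -0.35, -0.36 and -0.20, and without shOGT 2 they were -0.92, -1.04 and -0.72. Between the ctrl libraries these 3 genes differed far less, as the values above show. The SEs of Id1, Id2 and Id3 include variance borrowed from other genes. Without the variance trend they were 0.24, 0.29 and 0.22, against 0.15, 0.17 and 0.13 in the fit reported. At a pseudocount of 0.5 Id1 and Id2 missed the threshold (limma adjusted p = 0.0586 and 0.0625). Endothelial cells, which also express Id1, were represented by 5 of 8 markers with values, which summed to 75.5 and 78.2 in shOGT and 50.9 and 59.5 in ctrl. Their part in the Id1 values was not tested.

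Of the ligands, Bmp7 fell, with libraries of a group close together. Bmp7, a secreted BMP of the brain and meninges, lies on the minus strand of chromosome 2 at 172868012 to 172940321, and it measured 983 and 1009 in shOGT, against 1347 and 1327 in ctrl. Both shOGT libraries were thus at 73.5% and 75.4% of the ctrl mean, with no overlap between groups. The means were 996 ± 17.8 in shOGT and 1337 ± 14.2 in ctrl (SD, n = 2 each), and the log2 fold change was -0.42 ± 0.05 (SE; limma adjusted p = 0.00327). The fold change ranged from -0.44 to -0.41 as each library was left out in turn, and the gene was still called at a pseudocount of 0.5 (adjusted p = 0.00541), the only member that was.

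Per length of exon, Bmp7 was the most abundant of the 10 BMP ligands with values. Of 14 ligands on the list, 10 had values and 9 were tested. Bmp7 was the 1 called (1 lower, 0 higher), and the median log2 fold change was -0.09. Among all genes tested 2.9% were called lower. Per kb of merged exon, Bmp7 measured 245 and 251 in shOGT and 335 and 330 in ctrl, while Bmp2, a close relative of BMP4, measured 4.19 and 6.36 in shOGT and 4.21 and 2.23 in ctrl; Bmp2 was chosen after its values were seen. Gdf6 and Bmp8b, the ligands with the smallest unadjusted p besides Bmp7, were close to the lower limit of the signal. Gdf6 measured 3.19 and 1.89 in shOGT and was listed at 0 in both ctrl libraries, and Bmp8b measured 4.25 and 1.89 in shOGT and 0.997 and 0 in ctrl (adjusted p = 0.211 and 0.318).

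Bmpr1a fell, and Bmpr2 had higher values in both shOGT libraries. Bmpr1a, the type I receptor kinase gene on the minus strand of chromosome 14 at 34410734 to 34503341, measured 2305 and 2572 in shOGT, against 2839 and 2854 in ctrl. The groups did not overlap, and shOGT 1 was again the lowest. Bmpr1a fell by 0.23 on the log2 scale, with an SE of 0.05 (n = 2 each; limma adjusted p = 0.04999), and was the last of the 1060 called genes in order of p. Without shOGT 1 its log2 fold change was -0.15. It missed the threshold at a pseudocount of 0.5 (adjusted p = 0.0605) and with libraries rescaled to equal totals (adjusted p = 0.0535). Exons of Bmpr1a overlap 290 bases of Gm17110 on the other strand, a gene that measured at most 4.71 in any library.

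Bmpr2, the type II receptor kinase gene on the plus strand of chromosome 1 at 59763400 to 59879014, measured 4322 and 4488 in shOGT and 3838 and 4025 in ctrl. Both shOGT values were above both ctrl values, but the gene missed the threshold, with a log2 fold change of 0.16 and an SE of 0.04 (n = 2 each; limma adjusted p = 0.0600). It passed with libraries rescaled to equal totals (adjusted p = 0.0333) and at a minimum signal of 10 (adjusted p = 0.0189). The ratio of Bmpr1a to Bmpr2 within a library was 0.533 and 0.573 in shOGT and 0.740 and 0.709 in ctrl, again without overlap.

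Of the 7 BMP receptors listed, all were tested, and Bmpr1a was the 1 called lower, with 0 called higher and a median of -0.06. The share called lower over all genes tested was 2.9%. Bmpr1b, the second type I receptor of the family, measured 427 and 393 in shOGT and 573 and 482 in ctrl (log2 fold change -0.36 ± 0.10, limma adjusted p = 0.068). Acvr1, which encodes ALK2, a type I receptor for BMP7, measured 331 and 323 in shOGT and 369 and 352 in ctrl (-0.14 ± 0.08, limma adjusted p = 0.403). Both thus had lower values in both shOGT libraries without passing the test.

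The inhibitory SMAD genes were weakly expressed. Smad7, on chromosome 18, encodes a protein that blocks receptor activity, and it measured 35.1 and 44.3 in shOGT and 49.9 and 55.6 in ctrl. Smad6, on chromosome 9, encodes an inhibitor that acts mainly on BMP receptors and SMAD1, and it measured 5.32 and 1.89 in shOGT and 13.0 and 5.95 in ctrl. Neither pair of groups overlapped, and neither gene passed the test, with log2 fold changes of -0.41 ± 0.23 for Smad7 and -1.21 ± 0.61 for Smad6 (SE, n = 2 each; limma adjusted p = 0.387 and 0.318). The Smad6 values are 5 and 2 steps in shOGT and 13 and 6 steps in ctrl, and its fold change ranged from -1.77 to -0.64 as libraries were left out.

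**Figure D2:**
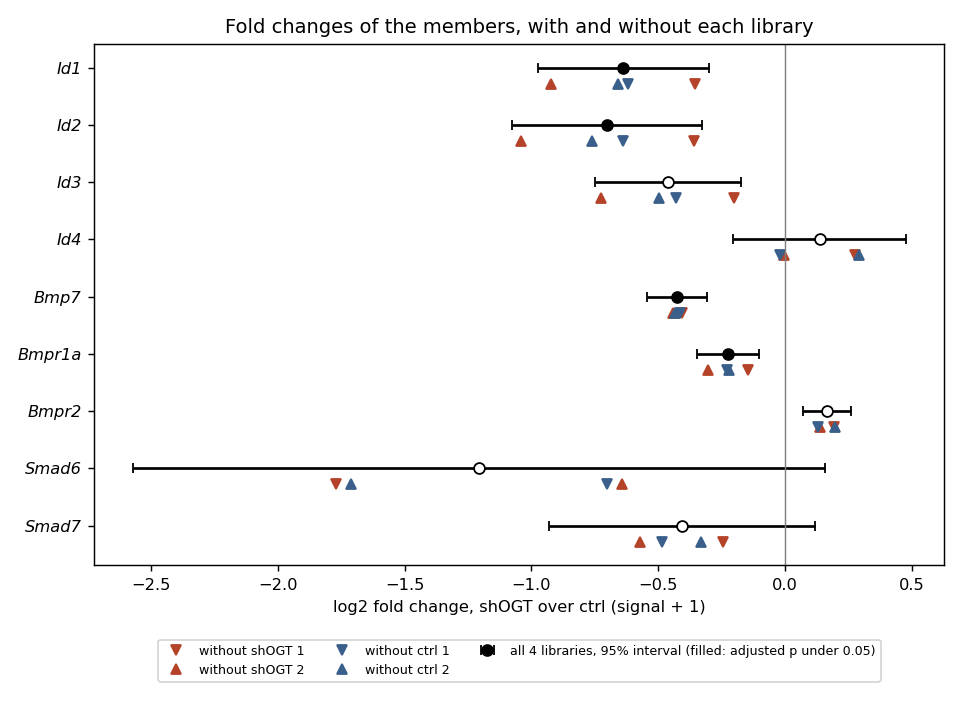
Log2 fold change of shOGT over ctrl on the log2(signal + 1) scale (x axis) for the 9 measured genes; circles with 95% intervals use all 4 libraries and are filled where the adjusted p is under 0.05, and triangles leave out 1 library each. Bmp7 stays between -0.44 and -0.41, whereas Id1, Id2 and Id3 are more negative without shOGT 2 and closer to 0 without shOGT 1.

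Of the 6 BMP SMADs, the inhibitory ones included, limma called 0 in either direction, and 1 (Smad9) had an unadjusted p under 0.05; the list median was -0.23. Smad9, a receptor-activated SMAD gene, measured 72.3 and 89.6 in shOGT and 118 and 111 in ctrl (log2 fold change -0.50 ± 0.17, limma adjusted p = 0.133). Smad5 measured 4258 and 4164 in shOGT and 4063 and 4065 in ctrl (0.05 ± 0.04, adjusted p = 0.516). Per kb of exon Smad5 was at 574 and 561 in shOGT and 548 and 548 in ctrl, above Smad1 at 121 and 118 in shOGT and 122 and 125 in ctrl, a gene chosen after its values were seen.

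Among the secreted antagonists and modulators, 2 of 18 tested genes fell and 0 rose, with a list median of -0.03. Over all genes tested 2.9% were called lower. Twsg1, which encodes a BMP-binding protein that works with chordin, measured 1112 and 1221 in shOGT, against 1543 and 1498 in ctrl (-0.38 ± 0.06, limma adjusted p = 0.00854). Fstl1, which encodes a secreted glycoprotein that antagonises BMP signalling, measured 882 and 841 in shOGT, against 1054 and 1153 in ctrl (-0.36 ± 0.06, limma adjusted p = 0.0156). Both fell without overlap between groups. In 7 of the 18 both shOGT values lay under both ctrl values, and in 6 they lay above, beside 24.3% and 25% of all genes tested. Sostdc1, which encodes a secreted BMP and Wnt antagonist, measured 251 and 220 in shOGT and 164 and 176 in ctrl and missed the threshold (0.47 ± 0.12, limma adjusted p = 0.0522); it was chosen after its values were seen. It passed at a minimum signal of 10 (adjusted p = 0.0185) and with libraries rescaled to equal totals (adjusted p = 0.0422).

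Of the 5 tested BMP co-receptors, 1 fell and 0 rose, beside 2.9% called lower over all genes tested. Rgma, which encodes a repulsive guidance molecule that binds BMPs and neogenin, measured 1185 and 1118 in shOGT, against 1486 and 1380 in ctrl (-0.31 ± 0.06, limma adjusted p = 0.018). Exons of Rgma overlap 258 bases of A730056A06Rik on the other strand, which measured 36.1 and 46.2 in shOGT and 43.9 and 35.7 in ctrl. Of 10 intracellular and membrane regulators, limma called 0, with a median of -0.02 and 1 gene at an unadjusted p under 0.05. The smallest p values were those of Usp9x, a deubiquitinase of SMAD4 (0.11 ± 0.04, adjusted p = 0.153), and Ski, a SMAD corepressor (0.09 ± 0.05, adjusted p = 0.326).

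The list of BMP target genes, which holds the ID genes and both inhibitory SMADs, had 13 tested members, of which 2 (Id1 and Id2) fell and 0 rose. Its median log2 fold change was -0.46, the value of Id3 itself. The calls and the median thus repeat genes described above and are no separate result. Over all genes tested 2.9% were called lower. In 8 of the 13 both shOGT values lay under both ctrl values and in 1 they lay above, beside 24.3% and 25% of all genes. Of those 8, only Smad9, Bambi and Nog are not members. The target outside the members with the smallest p apart from Smad9 was Msx2, a homeobox gene, at 9.57 and 15.1 in shOGT and 1.99 and 7.94 in ctrl (adjusted p = 0.266). In 11 of the 13, and in 8 of the 9 members, shOGT 1 was lower than shOGT 2, beside 49.5% of all genes tested; this count was taken after the values had been seen. The widest gap in proportion was in Atoh8, a bHLH gene, with 9.57 and 48.1 in shOGT and 37.9 and 60.5 in ctrl.

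Among the E proteins that ID factors bind, Tcf12 measured 7595 and 7495 in shOGT and 8169 and 8055 in ctrl. Tcf4 measured 8393 and 8951 in shOGT and 9367 and 9443 in ctrl. Limma called 0 of the 3 E protein genes, and 2 of them had an unadjusted p under 0.05. Log2 fold changes were -0.10 ± 0.03 for Tcf12 and -0.12 ± 0.04 for Tcf4 (limma adjusted p = 0.122 and 0.130). Of the 64 tested BMP and bHLH genes other than the members, 6.25% were called, beside 4.86% of all genes tested.

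**Figure D3:**
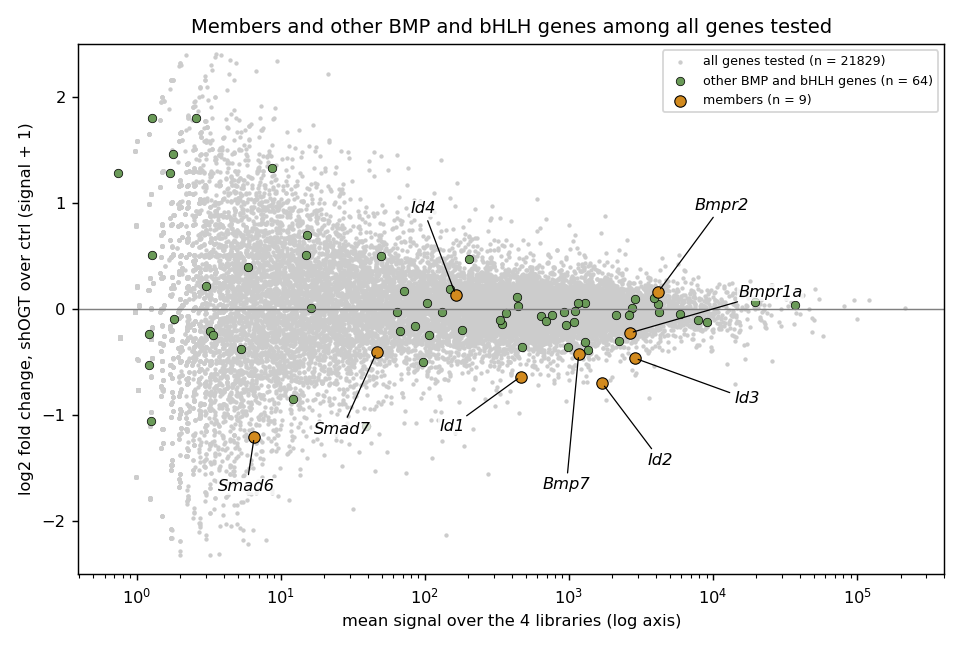
Log2 fold change of shOGT over ctrl (y axis) against the mean signal over the 4 libraries (x axis, log) for all 21829 genes tested (grey), the 64 other BMP and bHLH genes (green) and the 9 members (orange, named). The y axis stops at 2.5 in each direction and leaves out 8 genes; Id1, Id2, Id3 and Bmp7 lie at the lower edge of the cloud at their signal, and Smad6 lies where the cloud is wide.

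Scaled to merged exon length, the members' levels spanned a wide range and kept nearly the same order in every library. Id3 came first, at 1112 and 1597 signal per kb in shOGT and 1883 and 1795 in ctrl, and Id2 second, at 415 and 666 in shOGT and 891 and 819 in ctrl. Id1 stood at 253 and 375 in shOGT and 487 and 474 in ctrl, and Bmpr1a at 363 and 405 in shOGT and 447 and 449 in ctrl. Id1 lay above Bmpr1a in both ctrl libraries and under it in both shOGT libraries, where the ranges of Id1 and Bmpr1a overlapped.

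Bmp7 came next, and Bmpr2 followed at 240.3 and 249.6 signal per kb in shOGT and 213 and 224 in ctrl. Bmp7 and Bmpr2 were apart in ctrl, but in shOGT their ranges overlapped. Id4 followed at 40.1 and 48.7 in shOGT and 36.0 and 44.8 in ctrl, far under the other ID genes. Smad7 at 7.76 to 12.3 and Smad6 at 0.588 to 4.05 over the 4 libraries were last.

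**Figure D4:**
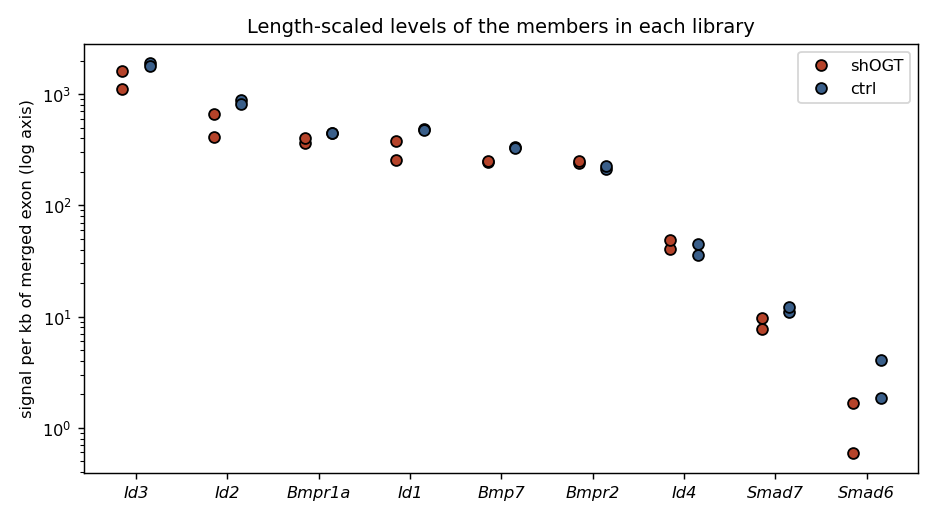
Signal per kb of merged exon (y axis, log) of the 9 measured genes, ordered by their mean over the 4 libraries, with 1 point for each shOGT library (red) and each ctrl library (blue). Id3 and Id2 lead in every library, Id4 lies well under the other ID genes, and Smad6 is lowest.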

How the data were processed

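Groups were taken from the sample titles, and values were read per gene for the 4 libraries. The authors deposited 1 signal value per gene and library; the submitters' processing notes name the build mm10, and the aligner, counter, annotation, strand setting and normalization are not given in the sources used. Of 25261 identifiers, 25250 matched GENCODE M21. Every deposited value was a whole multiple of 1 step per library (within 0.01 of a step for low values), but no count model was run. limma 3.58.1 (R 4.3.3), with an empirical Bayes variance trend, was fitted to log2(signal + 1) for genes with a signal of at least 1 in at least 2 libraries, and p-values were Benjamini-Hochberg adjusted over all genes tested. Fold changes understate those of low genes. Replicates differed by more than sampling noise (chi-square per gene 3.33 in shOGT and 2.02 in ctrl) and counted as separate samples. All members, every called pathway gene, and otherwise up to 2 genes per list with the smallest p were named. The result of 1 list is not reported here. Members and lists were chosen with earlier results of these data known. The fit was also run on simulated libraries whose extra variation was set alike for all genes, which does not test the calls reported here.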

Additional observations from a re-analysis of the deposited data

How the results depend on the processing

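The 4 calls on members (all lower) and the 4 on other BMP and bHLH genes (all lower) were made with 7.39 prior degrees of freedom, the weight limma gives to variance borrowed from other genes. That weight was 14.8 at a minimum of 10, 2.36 with no filter, 2.27 with quantile normalization and 1.03 without the variance trend. In the last 3 limma called 0 genes, members and pathway genes included, in either direction; an unadjusted p under 0.05 was seen for 4302, 3998 and 2763 genes, and Id1, no longer called, was at -0.64, -0.63 and -0.64. At a pseudocount of 0.5 Id1 (-0.64) was not called, and 1 member (Bmp7) was. At a minimum of 10, 822 genes were called higher and 1133 lower, and with libraries rescaled to equal totals 593 higher and 585 lower, against 427 higher and 633 lower in the values reported. In both, 1 member (Bmpr2) and 1 other pathway gene (Sostdc1) were called higher.

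Leaving out 1 library gave 0 calls, with Id1 between -0.92 and -0.35. Together with a minimum of 10, a pair chosen after seeing the data, it gave 1017 genes higher and 1318 lower without shOGT 1, 991 and 1466 without shOGT 2, 99 and 176 without ctrl 1, and 150 and 179 without ctrl 2. Members called were 0 to 1 higher and 1 to 5 lower, and other pathway genes 0 to 1 higher and 1 to 10 lower. Id1 was not called without ctrl 1 (-0.62) or ctrl 2 (-0.66), and Bmp7 was called in all 4 (adjusted p up to 0.0327). A lone library is then assumed to vary like the other group. In these fits the prior degrees of freedom were 3563 without shOGT 1 and 533 without shOGT 2. Without ctrl 1 and ctrl 2 they were 8.60 and 8.59. Id4 was -0.00487 without shOGT 2 and -0.0213 without ctrl 1 under both filters, and up to 0.29 without ctrl 2.

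Whether same-numbered libraries were prepared together is not stated in the labels. Their deviations correlated at 0.007 over all genes tested, which does not settle it. With the number as a block, 1007 genes were called higher and 1295 lower. These included 1 member higher and 5 lower, and 1 other pathway gene higher and 7 lower. The prior degrees of freedom of that fit were infinite, so its variances came from the trend alone. The planned count models (edgeR, DESeq2) were not run. Depth limits Smad6, at 2 to 13 steps.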
